A study of Mus musculus with 14 samples.

Results

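The type I interferon-stimulated genes described here are 38 mouse genes, chosen by symbol as antiviral effectors, RNA and DNA sensors and IFITM membrane genes, and all 38 were found among the 54532 gene lines of the count table. They were followed in bulk RNA-seq of mouse bone marrow cells sorted as GMPs, the granulocyte-monocyte progenitors, and as LT-HSCs, the long-term haematopoietic stem cells. The 4 groups were AML1-ETO GMPs with 3 libraries, control GMPs with 4, AML1-ETO LT-HSCs with 3 and control LT-HSCs with 4. AML1-ETO mice had the genotype Runx1-Runx1t1, which encodes the fusion protein of a recurrent translocation of acute myeloid leukaemia, and controls were labelled WT, both on C57BL/6. Every group had been given poly(I:C), a synthetic double-stranded RNA, at 5 mg/kg in 4 intraperitoneal doses on alternate days. In AML1-ETO mice this switched on the fusion through Mx1-Cre, whose promoter is itself that of an interferon-stimulated gene and is active in many interferon-responding cells. The labels do not state whether the controls carried Mx1-Cre, how long after the last dose the cells were sorted, or whether each library of a group had its own mouse, so the p-values cover only the spread between these libraries, which may be technical. With poly(I:C) in all 4 groups, a basal level and a response to poly(I:C) cannot be told apart here.

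Type I interferons bind the receptor pair IFNAR1 and IFNAR2, and the kinases JAK1 and TYK2 then act on STAT proteins. STAT2 and IRF9 are parts of ISGF3, a complex that binds the interferon-stimulated response element in the promoters of antiviral genes. In bone marrow, type I interferon is known to bring dormant stem cells into cycle, and stem cells are known to hold a set of interferon-stimulated genes at a standing level. Poly(I:C) is sensed by TLR3 and by the cytosolic RNA sensors MDA5 and RIG-I, and the genes of both cytosolic sensors, Ifih1 and Ddx58, are themselves interferon-stimulated.

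Promoters were examined first, since these genes are known by a shared element. RefSeq promoter windows on GRCm38.p6, running from 250 bases before to 50 bases after the annotated start, were matched to 28 of the 38 genes. Oas2, Mx1, Mx2, Usp18, Dhx58, Zbp1, Parp9, Parp14, Ifi27 and Rtp4 had none. The core of the interferon-stimulated response element was searched on both strands as GAAA, any 2 bases and GAAA again, and overlapping matches were counted separately. It was found for 14 of the 28 genes, against 1079 of all 27025 genes with a window (3.99%) and 427 of the 10807 that were tested over all libraries (3.95%). Windows of 6 genes are printed here 5′ to 3′ on the gene's strand, with the matches in capitals. Isg15, Ddx58 and Rsad2 were higher in AML1-ETO GMPs and hold the core, while Cmpk2, Ifitm1 and Ifitm3 were lower in AML1-ETO LT-HSCs, and the windows of Cmpk2 and Ifitm1 have no match while that of Ifitm3 does. For 24 of the 28 genes a RefSeq start lay within 50 bases of the gene's 5′ end in GENCODE, but the Ifitm1 window has its start 855 bases downstream of that end, so the lack of a match there says nothing of the promoter at the GENCODE start. Cmpk2 and Rsad2 also lie next to each other on chromosome 12, with divergent starts 12752 bases apart.
Isg15, chr4:156200769-156201068, minus strand: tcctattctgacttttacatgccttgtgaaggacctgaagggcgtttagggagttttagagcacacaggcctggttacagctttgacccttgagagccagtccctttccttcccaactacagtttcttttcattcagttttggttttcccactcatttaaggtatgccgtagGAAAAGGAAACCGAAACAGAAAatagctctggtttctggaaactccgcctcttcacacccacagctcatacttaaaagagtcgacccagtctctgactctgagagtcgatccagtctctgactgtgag
Ddx58, chr4:40239776-40240075, minus strand: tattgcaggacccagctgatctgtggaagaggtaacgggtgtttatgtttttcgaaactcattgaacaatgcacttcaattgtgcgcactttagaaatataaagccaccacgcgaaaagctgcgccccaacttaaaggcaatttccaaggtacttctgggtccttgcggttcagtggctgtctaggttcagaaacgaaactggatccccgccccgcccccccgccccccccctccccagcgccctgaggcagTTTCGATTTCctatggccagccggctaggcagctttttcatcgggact
Rsad2, chr12:26456403-26456702, minus strand: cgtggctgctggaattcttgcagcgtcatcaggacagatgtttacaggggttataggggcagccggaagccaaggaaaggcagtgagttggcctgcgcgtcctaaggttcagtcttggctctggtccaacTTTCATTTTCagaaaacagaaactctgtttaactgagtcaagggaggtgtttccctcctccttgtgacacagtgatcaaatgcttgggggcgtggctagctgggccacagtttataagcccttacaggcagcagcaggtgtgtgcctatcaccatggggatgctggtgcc
Cmpk2, chr12:26468965-26469264, plus strand: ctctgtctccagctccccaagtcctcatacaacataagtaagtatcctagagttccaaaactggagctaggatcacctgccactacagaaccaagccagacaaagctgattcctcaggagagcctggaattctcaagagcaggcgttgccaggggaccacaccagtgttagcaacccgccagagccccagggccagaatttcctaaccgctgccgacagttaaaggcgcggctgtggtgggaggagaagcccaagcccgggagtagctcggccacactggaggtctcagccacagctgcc
Ifitm1, chr7:140967826-140968125, plus strand: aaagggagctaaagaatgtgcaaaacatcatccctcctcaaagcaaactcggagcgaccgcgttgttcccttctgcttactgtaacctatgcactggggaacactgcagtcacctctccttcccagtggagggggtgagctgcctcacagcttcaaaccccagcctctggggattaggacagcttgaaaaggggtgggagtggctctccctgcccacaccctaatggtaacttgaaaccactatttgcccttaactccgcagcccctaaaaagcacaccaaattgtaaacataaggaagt
Ifitm3, chr7:141010695-141010994, minus strand: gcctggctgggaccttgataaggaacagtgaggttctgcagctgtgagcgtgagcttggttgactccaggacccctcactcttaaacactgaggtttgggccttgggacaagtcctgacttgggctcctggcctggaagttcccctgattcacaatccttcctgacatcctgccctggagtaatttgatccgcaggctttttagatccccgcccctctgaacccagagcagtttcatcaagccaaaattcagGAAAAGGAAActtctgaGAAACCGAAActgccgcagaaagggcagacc

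In the Isg15 window 3 overlapping matches began 78, 72 and 66 bases before the start. The Rsad2 match began 120 bases before the start and lay on the opposite strand, as did the Ddx58 match, which began at base 3 after the start. Ifitm3 had matches at bases 3 and 20 after its start. The other genes with a match were Ifit1, Ifit3, Ifit3b, Oas1a, Oas3, Ifih1, Eif2ak2, Ifitm2, Bst2 and Trim30a. Genes with a match were found on both sides of the results below: they were 4 of the 6 genes with a window among those higher in AML1-ETO GMPs, 2 of the 4 among those higher in AML1-ETO LT-HSCs, and 1 of the 4, Ifitm1 included, among those lower there. A match is a run of letters and no measured binding site, and a window without one says only that these letters are not within it.

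**Figure D1:**
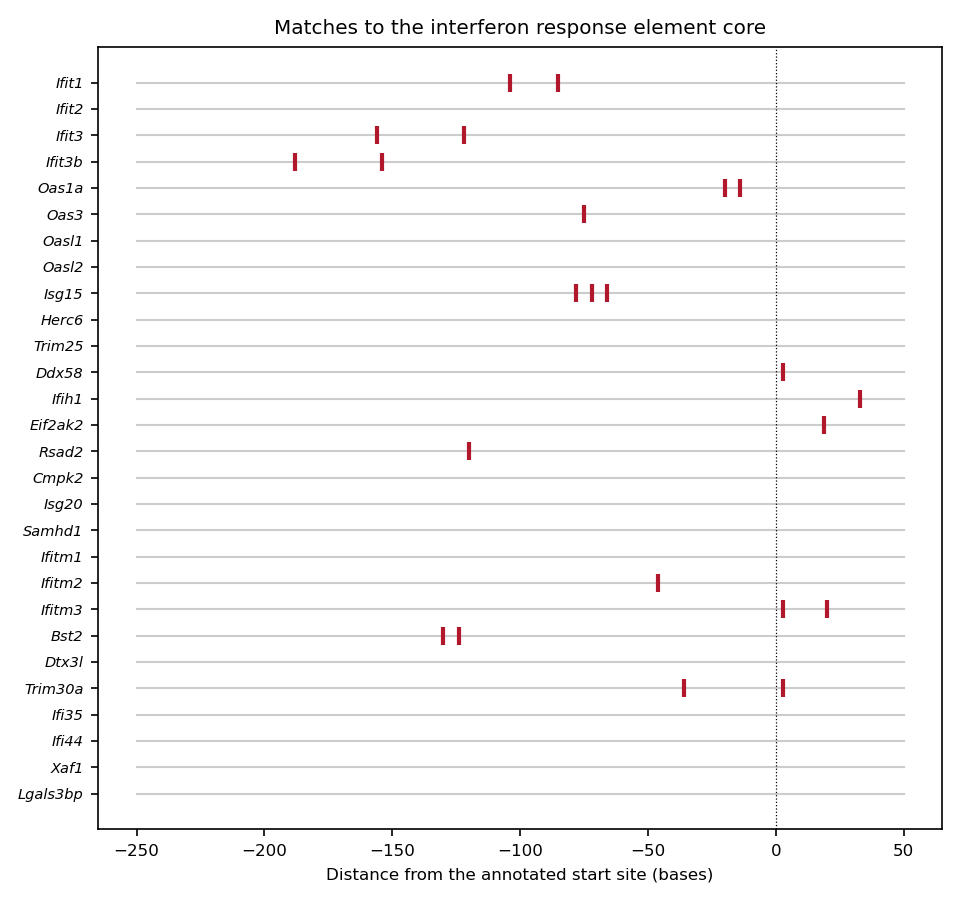
Matches to the core of the interferon-stimulated response element in the promoter windows of 28 interferon-stimulated genes, drawn as red ticks at the first base of each match, with distance from the annotated start in bases on the horizontal axis. Of the 28 genes 14 have at least 1 match, and the ticks lie on both sides of the start.

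Each library held between 13210952 and 19403864 counts assigned to genes, and levels are given as CPM, counts relative to library size, scaled by TMM factors over all 14 libraries. Pairs of libraries within a group differed by more than counting noise, with a mean chi-square per gene of 9.2 to 216, which does not tell whether they came from separate mice. Runx1t1, the fusion partner, stood at 26 to 45.7 CPM in the AML1-ETO GMP libraries against 1.69 to 2.74 CPM in the control GMP libraries, and at 85.6 to 164 CPM in the AML1-ETO LT-HSC libraries against 0 to 18.2 CPM in the control LT-HSC libraries. The 10 GMP markers summed to 21473 to 35567 CPM in the AML1-ETO GMP libraries and 28766 to 32980 CPM in the control GMP libraries, against 1214 to 1533 CPM in the AML1-ETO LT-HSC libraries and 73 to 417 CPM in the control LT-HSC libraries. The 10 LT-HSC markers summed to 419 to 1089 CPM in the AML1-ETO GMP libraries and 476 to 565 CPM in the control GMP libraries, against 2689 to 3060 CPM in the AML1-ETO LT-HSC libraries and 1330 to 2913 CPM in the control LT-HSC libraries. Markers of other cells also moved with genotype: 8 mast cell and basophil markers summed to 2273 to 3549 CPM in the AML1-ETO GMP libraries against 346 to 559 CPM in the control GMP libraries, and to 8774 to 11152 CPM in the AML1-ETO LT-HSC libraries against 409 to 662 CPM in the control LT-HSC libraries. In GMPs, 6 neutrophil markers summed to 598 to 3308 CPM in the AML1-ETO GMP libraries against 51.9 to 76.7 CPM in the control GMP libraries, and 6 erythroid markers to 60 to 4389 CPM in the AML1-ETO GMP libraries against 18.8 to 35.3 CPM in the control GMP libraries. In LT-HSCs, 8 plasma and B cell markers summed to 111 to 643 CPM in the AML1-ETO LT-HSC libraries against 13019 to 77157 CPM in the control LT-HSC libraries. Monocyte and macrophage markers summed to 10.2 to 23.7 CPM in the AML1-ETO LT-HSC libraries against 103 to 270 CPM in the control LT-HSC libraries, though of the 7 tested 1 was called higher and 1 lower. Erythroid markers summed to 393 to 478 CPM in the AML1-ETO LT-HSC libraries against 864 to 2334 CPM in the control LT-HSC libraries. T and NK cell markers (21 to 51.7 CPM in the AML1-ETO LT-HSC libraries against 54.6 to 324 CPM in the control LT-HSC libraries) and neutrophil markers (0.23 to 43.9 CPM in the AML1-ETO LT-HSC libraries against 45.1 to 151 CPM in the control LT-HSC libraries) were also lower with AML1-ETO without overlap. Of plasmacytoid dendritic cells, the cells best known for making type I interferon, the defining gene Siglech was at 4.9 CPM in AML1-ETO GMP replicate 3 and at 0 in the other two AML1-ETO GMP libraries, against 0 to 0.0649 CPM in the control GMP libraries, and it had no count in either LT-HSC group. Ccr9, another of their markers, was at 0 to 1.19 CPM in the AML1-ETO LT-HSC libraries against 2.1 to 15.5 CPM in the control LT-HSC libraries. The sum of their 8 markers, 172 to 654 CPM in the AML1-ETO GMP libraries against 522 to 655 CPM in the control GMP libraries, was made up mostly of Irf8, Tcf4 and Bst2, which other cells express too. The part of other cells in the results was not tested beyond these values, and in sorted bulk samples fewer cells of a type and less RNA per cell cannot be told apart.

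Some libraries were often the lowest of their group. Control LT-HSC replicate 3 had the lowest value of its group for 26 of 37 interferon-stimulated genes, 5 of the 38 at 0, and 109 of 7782 generally abundant genes under 0.2 CPM, against 2 to 29 in every other library. AML1-ETO GMP replicate 2 had the lowest value of its group for 20 of 38, and its erythroid markers summed to 60 CPM against 4389 and 1444 CPM in the other AML1-ETO GMP libraries. AML1-ETO LT-HSC replicate 3 had the lowest value of its group for 24 of 37. Abundant genes under 0.2 CPM numbered 5 in AML1-ETO GMP replicate 2 and 13 in AML1-ETO LT-HSC replicate 3, so neither stood apart by that measure. Results are therefore also given without these libraries.

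Summed over the 38 genes, levels were higher in AML1-ETO GMPs than in control GMPs, at 1677, 1338 and 1482 CPM against 985, 1037, 1061 and 1034 CPM, with no overlap. In LT-HSCs the sums overlapped, at 2223, 2279 and 1986 CPM with AML1-ETO and 2215, 2391, 1428 and 1855 CPM in controls. Every LT-HSC library but control replicate 3 lay above every GMP library. The spread between libraries was wide in AML1-ETO GMPs, where the median coefficient of variation over the genes was 47.7% (36.8% over all detected genes), and in control LT-HSCs, where it was 45.5% (46.5% over all detected genes). It was 14.8% in control GMPs (12.6% over all detected genes) and 18.8% in AML1-ETO LT-HSCs (21.7% over all detected genes).

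**Figure D2:**
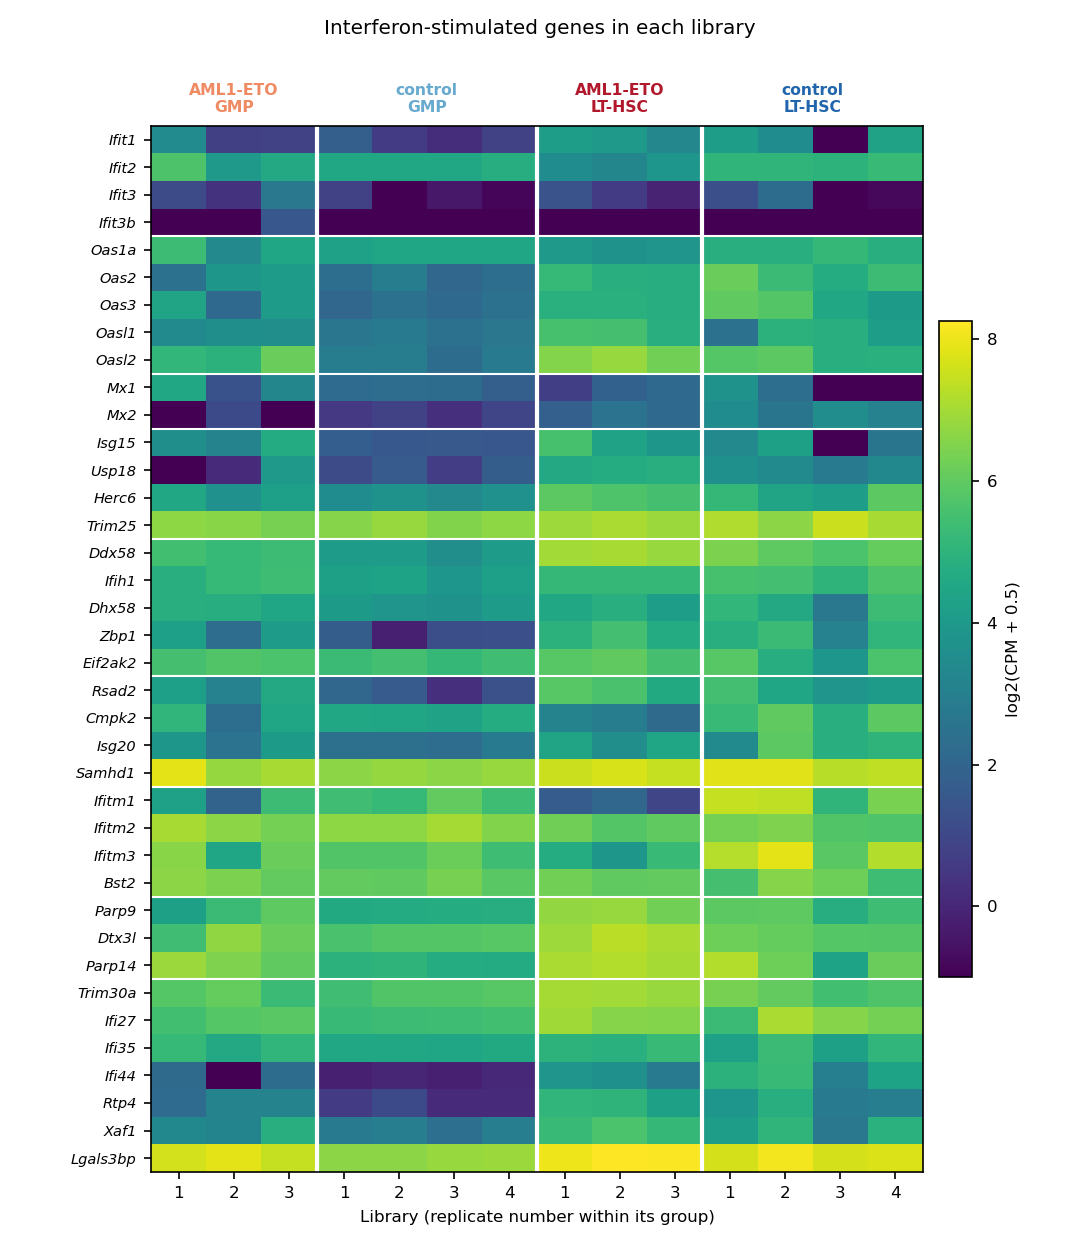
Level of the 38 interferon-stimulated genes in each of the 14 libraries, as log2(CPM + 0.5), with genes in rows ordered by role and libraries in columns by group. The 4 control GMP columns are the darkest for Oasl2, Zbp1, Rsad2 and Rtp4, and Ifitm1 is dark in the 3 AML1-ETO LT-HSC columns.

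In GMPs the comparison asked how the fusion affected these genes in committed myeloid progenitors, and 10 of the 36 tested genes rose with AML1-ETO while none fell. The genes that rose were sensors of foreign nucleic acid (Ddx58, Ifih1, Dhx58 and Zbp1), antiviral enzymes (Oasl2, Rsad2 and Parp14), the ubiquitin-like modifier Isg15, and Rtp4 and Lgals3bp. The 10 are 27.8% of those tested, against 5.47% of all 13981 genes called higher and 3.96% called lower in edgeR's quasi-likelihood test at an adjusted p under 0.05. Of the 36 log2 fold changes 31 were positive, with a median of 0.86 against -0.03 over all genes tested. None of the 36 was lower at an unadjusted p under 0.05, and DESeq2 likewise called 0 lower. In 13 genes (36.1%, against 10.6% of all genes) every AML1-ETO GMP library lay above every control GMP library, and in none (against 16.1%) did every one lie below. Ifit3b and Ifi44 were too low for the test.

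Of the 5 nucleic acid sensors 4 rose. Ddx58 (chromosome 4, 40203773 to 40239828 on mm10), which encodes RIG-I, stood at 43.5, 36.8 and 40 CPM in the AML1-ETO GMP libraries against 16.7, 16.5, 11.5 and 16.5 CPM in the control GMP libraries, a log2 fold change of 1.41 ± 0.19, adjusted p = 0.00919 (SE, 3 against 4 libraries, as for the values that follow). Ifih1 (chromosome 2, 62595798 to 62646255), which encodes MDA5, stood at 27.6, 36.3 and 40.9 CPM against 18.9, 20.4, 14.2 and 18.3 CPM in controls (0.98 ± 0.21, adjusted p = 0.0282). For both sensors all 3 AML1-ETO GMP libraries lay above every control GMP library. Dhx58, which encodes the regulatory helicase LGP2, stood at 27.3, 27 and 21.6 CPM against 16.1, 13.6, 13.1 and 16.5 CPM in controls (0.79 ± 0.20, adjusted p = 0.0436). Zbp1 (chromosome 2, 173206612 to 173218923), a sensor of Z-form nucleic acid that triggers cell death, stood at 18.3, 4.45 and 16.8 CPM against 2.84, 0.377, 1.82 and 1.92 CPM in controls (2.94 ± 0.73, adjusted p = 0.0441). Here too the groups did not overlap, and AML1-ETO replicate 2 was nearest to the controls. Eif2ak2, which encodes the double-stranded RNA-dependent kinase PKR, stood at 45.4, 53.3 and 49.7 CPM against 39.6, 45.1, 35.7 and 42.5 CPM and was not called (0.30 ± 0.14, adjusted p = 0.233).

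Among enzymes that act on RNA and nucleotides, Oasl2 and Rsad2 rose. Oasl2 (chromosome 5, 114896936 to 114912234), of the oligoadenylate synthetase family, which makes the activator of RNase L, stood at 34.9, 30.5 and 69.7 CPM in the AML1-ETO GMP libraries against 7.17, 6.89, 4.29 and 6.52 CPM in the control GMP libraries (2.87 ± 0.34, adjusted p = 0.00674). Rsad2 (chromosome 12, 26442746 to 26456452), which encodes viperin, an enzyme that makes a chain-terminating nucleotide, stood at 18.3, 8.05 and 23.5 CPM against 3.69, 2.64, 0.714 and 1.98 CPM in controls (2.89 ± 0.60, adjusted p = 0.0262). In both genes the lowest AML1-ETO library, replicate 2, exceeded the highest control. Oasl2 is 1 call of 5 in its family: Oas1a, Oas2, Oas3 and Oasl1 had positive log2 fold changes of 0.21, 1.32, 1.68 and 0.96 with adjusted p of 0.817, 0.133, 0.0945 and 0.0868. Isg20, an exonuclease (1.23 ± 0.43, adjusted p = 0.125), and Samhd1, which hydrolyses deoxynucleotides (0.62 ± 0.24, adjusted p = 0.158), were not called. Cmpk2, the mitochondrial nucleotide kinase beside Rsad2, did not follow its neighbour in the same libraries: it stood at 33.5, 4.58 and 22.1 CPM against 22.8, 21.4, 19.7 and 26.4 CPM in controls, with overlapping groups (-0.15 ± 0.54, adjusted p = 0.901).

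Isg15 (chromosome 4, 156199424 to 156200818), the ubiquitin-like protein attached to targets in interferon-treated cells, stood at 11.6, 8.31 and 25.2 CPM in the AML1-ETO GMP libraries against 2.89, 2.42, 2.47 and 2.39 CPM in the control GMP libraries, with no overlap (2.58 ± 0.44, adjusted p = 0.0179). Its system was otherwise not called: Herc6, the ISG15 ligase of the mouse, had a change of 0.65 ± 0.27, adjusted p = 0.19, and Trim25, a ubiquitin ligase that activates RIG-I, one of -0.08 ± 0.13, adjusted p = 0.767. Usp18, the protease that removes ISG15 and blocks the interferon receptor, varied widely among AML1-ETO libraries, at 0, 0.589 and 15.1 CPM against 1.71, 2.69, 1.1 and 2.79 CPM in controls (1.35 ± 1.47, adjusted p = 0.643).

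Parp14 (chromosome 16, 35832874 to 35871544), a mono-ADP-ribosyltransferase, stood at 117, 88.4 and 63.5 CPM in the AML1-ETO GMP libraries against 30.1, 32.3, 26.4 and 25.3 CPM in the control GMP libraries (1.67 ± 0.21, adjusted p = 0.00701). Lgals3bp (chromosome 11, 118392751 to 118402092), a secreted galectin-binding glycoprotein, stood at 198, 233 and 176 CPM against 101, 99.8, 114 and 116 CPM (0.93 ± 0.12, adjusted p = 0.00758). Both sets of AML1-ETO values were above all controls. Rtp4 (chromosome 16, 23520291 to 23614222), an interferon-stimulated membrane-protein chaperone, stood at 4.21, 8.31 and 8.27 CPM against 1.02, 1.62, 0.584 and 0.582 CPM (2.87 ± 0.61, adjusted p = 0.028). It was low in every control GMP library, and each AML1-ETO one lay above them all. Parp9 (0.66 ± 0.34, adjusted p = 0.294) and Dtx3l (0.46 ± 0.27, adjusted p = 0.359), partners in a complex that modifies ubiquitin, were not called in GMPs. The 4 membrane genes, Ifitm1, Ifitm2, Ifitm3 and Bst2, were not called, with log2 fold changes between -1.12 and 0.33. Nor were the 3 tested Ifit genes, of which Ifit3 shares sequence with its near copy Ifit3b, so counts of that pair are uncertain. Mx1 and Mx2, dynamin-like antiviral GTPases of which C57BL/6 is known to carry a defective Mx1, were not called either, and Mx2 was at 0, 1.64 and 0 CPM against 0.964, 1.29, 0.714 and 1.4 CPM.

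In GMPs the calls for Oasl2, Ddx58, Parp14 and Lgals3bp held when any 1 of the 7 libraries was left out, with an adjusted p of at most 0.0458. Oasl2, Ddx58 and Lgals3bp were lost when replicate number was added to the fit, and Parp14 when all 14 libraries were fitted at once. The fit with replicate number joins libraries of the 2 genotypes by number. It leaves control replicate 4 without a partner, so that library adds nothing to the effect, and less remains to estimate the spread. The other 6 of the 10 calls were lost without any 1 of the 4 control GMP libraries, which left 4 calls, with adjusted p up to 0.148, and Zbp1 also without AML1-ETO replicate 1 or 3. Without AML1-ETO GMP replicate 2 the 10 genes were joined by Oas3, Mx1, Herc6, Isg20, Samhd1, Ifi35, Ifi44 and Xaf1, which gave 18 called higher, and Mx2 was called lower. Calls over all genes rose in that fit as well, from 765 to 1550 higher and from 554 to 1964 lower. That library was picked partly by its low values of these genes, so the gain in genes called higher is partly built in. The mast cell and basophil, neutrophil and erythroid marker sums given above were also higher in AML1-ETO GMPs without overlap, and their part in these results was not tested.

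In LT-HSCs the fusion went with changes in both directions: 6 of 37 tested genes rose and 4 fell. Those that rose were Oasl2, Usp18, Ddx58, Parp9, Dtx3l and Trim30a, and those that fell were Ifit2, Cmpk2, Ifitm1 and Ifitm3. The 6 are 16.2% of those tested, against 7.59% of all 14589 genes, and the 4 are 10.8%, against 4.69%. The median log2 fold change was 0.31 against 0.03 over all genes, with 22 positive and 15 negative. Groups did not overlap in 7 genes above (18.9%, against 15.5% of all genes) and 6 below (16.2%, against 13.0%), shares near those of all genes. The marker sum of GMPs, 1214 to 1533 CPM with AML1-ETO against 73 to 417 CPM in controls, also differed between these LT-HSC groups without overlap. So did the sums of mast cells and basophils, plasma and B cells, monocytes and macrophages, erythroid cells, T and NK cells and neutrophils given above. The part of all these in the results was not tested.

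Ifitm1 (chromosome 7, 140967221 to 140969825), one of the IFITM proteins that block fusion of viruses with cell membranes, had the largest fall of the 37, to 2.75, 3.69 and 1.41 CPM in the AML1-ETO LT-HSC libraries against 176, 166, 33.2 and 83.1 CPM in the control LT-HSC libraries, a log2 fold change of -5.36 ± 0.71, adjusted p = 0.00368. All 3 AML1-ETO values were below 4 CPM and the lowest control, replicate 3, was still far above them. Ifitm3 (chromosome 7, 141009586 to 141010770), its neighbour on the other side of a gap of 39761 bases, stood at 26.2, 14.4 and 38.2 CPM against 149, 236, 58.7 and 147 CPM in controls (-2.39 ± 0.50, adjusted p = 0.0191). Ifitm2, 11234 bases from Ifitm1 on its other side, stood at 75.8, 55 and 63.2 CPM against 80.8, 87.5, 53.6 and 52.4 CPM and was not called (0.01 ± 0.26, adjusted p = 0.987). Of these 3 genes Ifitm2 thus overlapped between groups while Ifitm1 and Ifitm3 did not. Bst2, which encodes tetherin, was not called (0.21 ± 0.31, adjusted p = 0.767).

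Cmpk2 (chromosome 12, 26469204 to 26479837) stood at 8.3, 7.06 and 4.16 CPM in the AML1-ETO LT-HSC libraries against 37.2, 64.2, 27.8 and 60.9 CPM in the control LT-HSC libraries (-2.76 ± 0.44, adjusted p = 0.00746). Rsad2, its divergent neighbour, stood at 57.3, 48.5 and 24.1 CPM against 44.6, 21.8, 13.6 and 17 CPM, overlapped between groups and was not called (0.93 ± 0.49, adjusted p = 0.284). Every AML1-ETO value of Cmpk2 was below every control, while AML1-ETO values of Rsad2 were, in 2 of 3 libraries, above every control. Ifit2 (chromosome 19, 34550694 to 34576419), of the IFIT family that binds viral RNA and halts translation, stood at 10.9, 9.06 and 14.2 CPM against 32.6, 32.5, 31.5 and 37.9 CPM in controls (-1.47 ± 0.31, adjusted p = 0.0213). The control values of Ifit2 lay close together, replicate 3 included. Oas1a had the same order, at 15.4, 13.1 and 13.7 CPM against 28.4, 28.1, 35.4 and 28.2 CPM without overlap, but missed the threshold (-0.99 ± 0.30, adjusted p = 0.0674), and its near copy Oas1g makes its counts uncertain.

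Of the genes that rose in LT-HSCs, Ddx58 stood at 127, 131 and 115 CPM with AML1-ETO against 86.7, 62.3, 49.6 and 67.1 CPM in controls (1.0 ± 0.22, adjusted p = 0.025), and Oasl2 at 92.6, 113 and 77.5 CPM against 56.6, 60.2, 28.2 and 29 CPM (1.21 ± 0.33, adjusted p = 0.0472). These were the 2 genes called in both cell types, higher in each, and 20 of the 38 were called in neither. Usp18 (chromosome 6, 121245906 to 121270917) stood at 23.8, 26.1 and 28.2 CPM with AML1-ETO against 11.9, 10.2, 6.75 and 9.52 CPM in controls (1.53 ± 0.38, adjusted p = 0.0378). The AML1-ETO values of Usp18 lay within a narrow range, all above the controls, while those in GMPs were spread widely.

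Dtx3l (chromosome 16, 35926511 to 35939151), a ubiquitin ligase, stood at 121, 156 and 137 CPM in the AML1-ETO LT-HSC libraries against 74.6, 66.1, 55.7 and 54.4 CPM in the control LT-HSC libraries (1.23 ± 0.19, adjusted p = 0.0067). Parp9 (chromosome 16, 35938470 to 35972605), its partner, stood at 108, 115 and 78.1 CPM against 61.1, 61.8, 26.5 and 41.5 CPM (1.17 ± 0.32, adjusted p = 0.0483). The pair lies head to head on opposite strands with 682 shared bases, and no source used here states whether counting was by strand, so some reads of one may count for the other. Trim30a (chromosome 7, 104409025 to 104465193), a TRIM protein that dampens Toll-like receptor signalling, stood at 128, 126 and 113 CPM with AML1-ETO against 82.2, 65.2, 43.3 and 52.2 CPM in controls (1.10 ± 0.25, adjusted p = 0.0242), and its counts are uncertain because of the near copy Trim30d. The groups did not overlap in any of these 3 genes. Parp14, which rose in GMPs, stood at 137, 145 and 130 CPM against 148, 74.9, 20.3 and 69.6 CPM in LT-HSCs, where controls spread widely (0.90 ± 0.52, adjusted p = 0.342). The same held for Isg15, at 46.4, 19.7 and 14.3 CPM against 9.69, 18.8, 0 and 5.64 CPM (1.76 ± 1.23, adjusted p = 0.448).

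In LT-HSCs the call for Ifitm1 alone held without any 1 of the 7 libraries, with an adjusted p of at most 0.0293. Without AML1-ETO replicate 2 no gene was called higher and 1 lower. Without AML1-ETO replicate 1 or 3, or control replicate 4, 1 gene was called higher, and without AML1-ETO replicate 1, 2 were called lower. Without control replicate 3, 5 were called higher, with Oasl2 lost, and the same 4 lower. Over all genes that fit called 1373 higher and 1003 lower, against 1107 and 684 with all libraries. Among the fits that left out 1 library, Dtx3l and Cmpk2 were lost only without AML1-ETO replicate 2, with an adjusted p of 0.0514 and 0.0554.

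The difference between the effects in the 2 cell types was tested over all 14 libraries, and 5 of 37 genes had a higher effect in GMPs than in LT-HSCs while none had a lower one. They were Ifitm1, Ifitm3, Cmpk2, Ifit2 and Ifih1. The 5 are 13.5% of those tested, against 3.43% of all 16116 genes, and 2.91% of all genes had a lower effect. The median difference over the 37 was 0.91 on the log2 scale, against 0.01 over all genes. At an unadjusted p under 0.05, 1 of the 37 had a lower effect in GMPs. DESeq2 called 0 lower. Ifitm1 had a difference of 4.32 ± 0.96, adjusted p = 0.0169, Ifitm3 of 2.69 ± 0.69, adjusted p = 0.0333, Cmpk2 of 2.70 ± 0.72, adjusted p = 0.0399 and Ifit2 of 1.89 ± 0.49, adjusted p = 0.0322. In these 4 genes the difference stood beside a fall in LT-HSCs and no call in GMPs, where Ifitm1, for example, stood at 19, 3.4 and 40.7 CPM with AML1-ETO and 42.9, 36.7, 65 and 41.3 CPM in controls. Ifitm3 in GMPs stood at 98.7, 21.6 and 69.5 CPM with AML1-ETO and 53.5, 53.5, 71.5 and 41.3 CPM in controls, and AML1-ETO replicate 2 was lowest for both. Ifit2 in GMPs stood at 50.6, 15.6 and 23.6 CPM against 22.4, 22.8, 22.9 and 26.9 CPM. For Ifih1 the difference stood beside a rise in GMPs and no call in LT-HSCs, where it was at 35.2, 35.2 and 35.2 CPM with AML1-ETO against 46.8, 44.5, 31.7 and 50.2 CPM in controls (1.26 ± 0.33, adjusted p = 0.0351 for the difference). The difference for Oasl2 just missed the threshold (1.74 ± 0.49, adjusted p = 0.0519). For the other GMP calls it was not called, with an adjusted p of 0.377 for Ddx58, 0.153 for Rsad2, 0.828 for Isg15 and 0.502 for Parp14, so an effect confined to GMPs was not shown for them.

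None of the 5 differences was called in every fit that left out 1 library. That of Ifitm1 was lost without AML1-ETO LT-HSC replicate 3 alone, with an adjusted p of 0.0518. The number called was 1 without AML1-ETO LT-HSC replicate 1 or 2 or any control GMP library, 2 without AML1-ETO LT-HSC replicate 3 or AML1-ETO GMP replicate 3, 3 without control LT-HSC replicate 2 or AML1-ETO GMP replicate 1, and 8 without control LT-HSC replicate 3. Without AML1-ETO GMP replicate 2, 8 genes had a higher effect in GMPs, and Mx2 and Dtx3l a lower one.

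**Figure D3:**
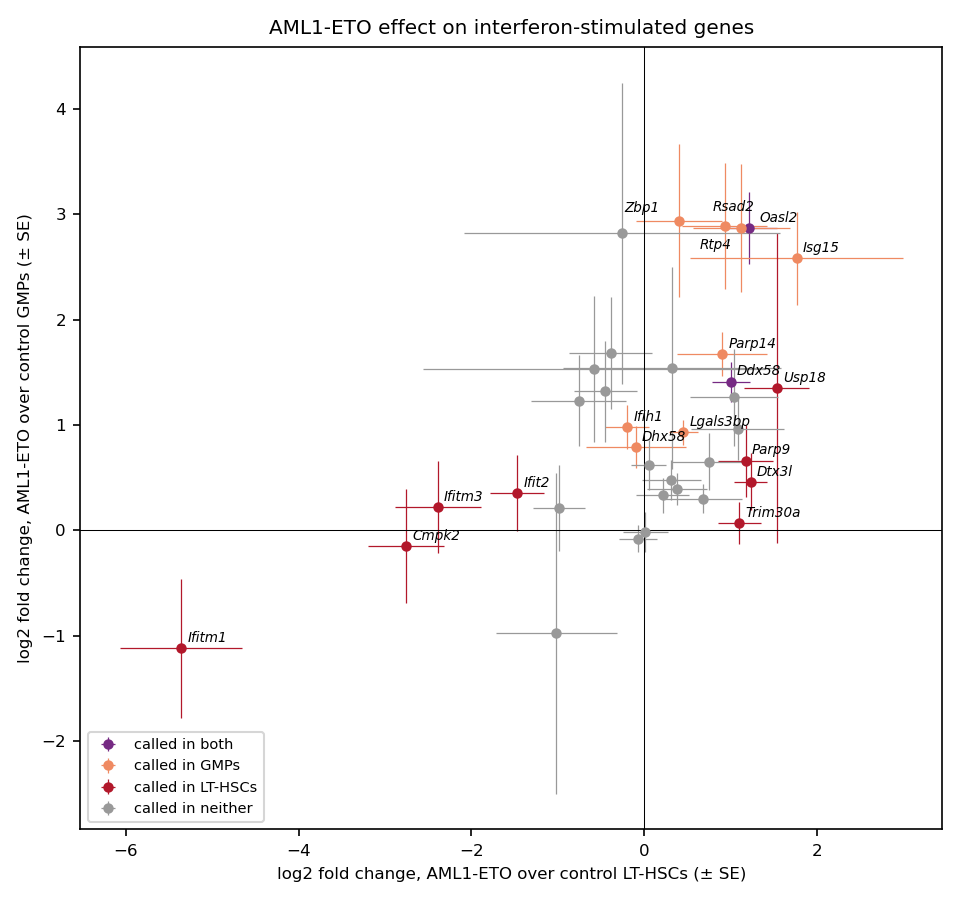
Effect of AML1-ETO on the 36 interferon-stimulated genes tested in both cell types, as log2 fold change of AML1-ETO over control in GMPs (vertical axis) and in LT-HSCs (horizontal axis), with bars of 1 SE and colours for the cell type in which the gene was called. Oasl2 and Ddx58, called in both, lie at the upper right, and Ifitm1, Ifitm3, Cmpk2 and Ifit2 lie to the left of 0.

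**Figure D4:**
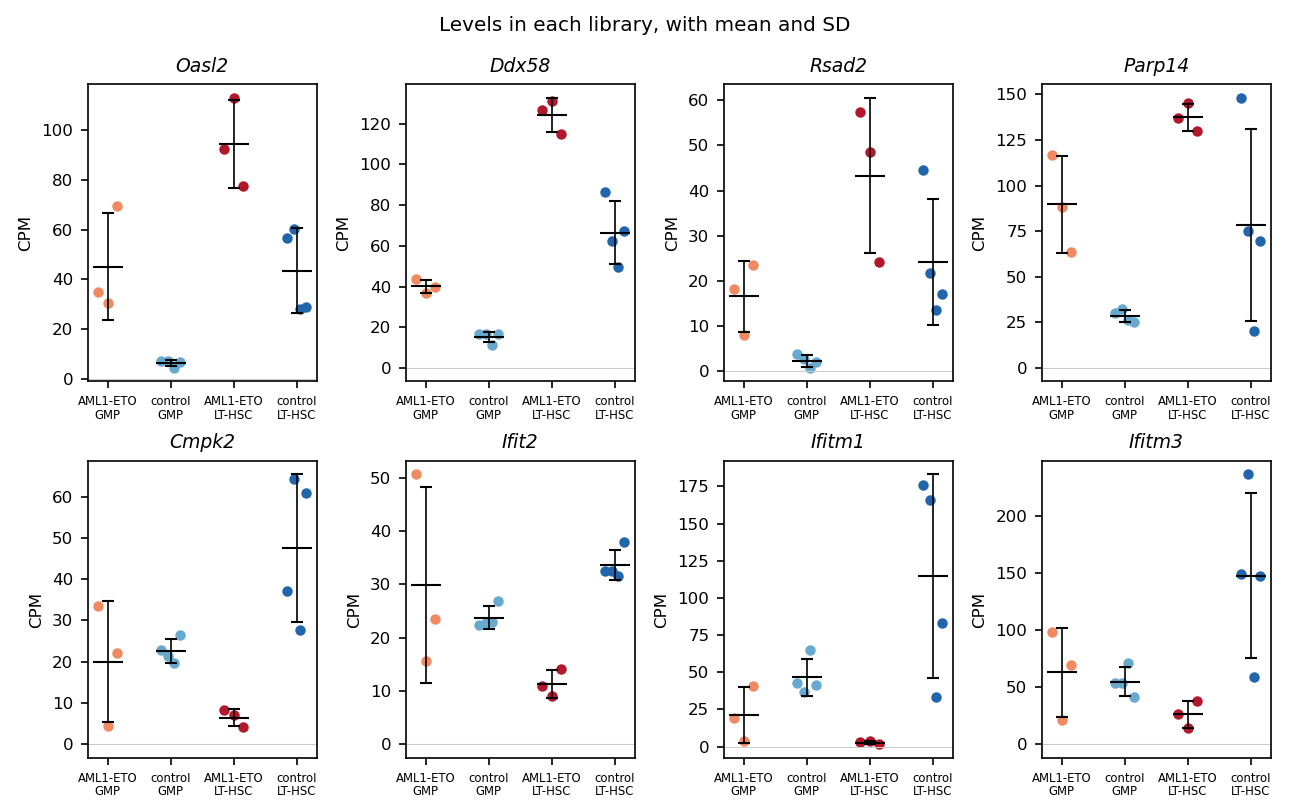
Levels in CPM of 8 interferon-stimulated genes in each library (points), with the mean (long bar) and SD (short bars) of each group. Oasl2, Ddx58, Rsad2 and Parp14 are higher in AML1-ETO GMPs than in every control GMP library, and Cmpk2, Ifit2, Ifitm1 and Ifitm3 are lower in AML1-ETO LT-HSCs than in every control LT-HSC library.

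Between cell types, the same genes were compared to show the level from which each effect was read. In control mice 18 of 37 genes were lower in GMPs than in LT-HSCs (48.6%, against 10.6% of all genes) and Ifitm2 alone was higher (2.70%, against 13.9%), with a median log2 fold change of -1.43 against 0.02 over all genes. In 18 genes every control GMP library lay below every control LT-HSC library (against 11.4% of all genes), and in 1, Ifitm2, every one lay above (against 20.8%). Ddx58 averaged 15.3 ± 2.55 CPM in the control GMP libraries and 66.4 ± 15.4 CPM in the control LT-HSC libraries (SD, n = 4 each), a log2 fold change of -2.12 ± 0.19, adjusted p = 7.3e-06. Oasl2 averaged 6.22 ± 1.32 CPM and 43.5 ± 17.2 CPM in the same groups (-2.80 ± 0.34, adjusted p = 7.16e-05), and Zbp1 1.74 ± 1.02 CPM and 27.3 ± 13.6 CPM (-3.97 ± 0.66, adjusted p = 0.000749). Ifi44, an interferon-induced protein, averaged 0.443 ± 0.0725 CPM in the control GMP libraries and 24.1 ± 13.3 CPM in the control LT-HSC libraries (-5.74 ± 1.08, adjusted p = 0.00164). Oas2, Oas3, Rsad2 and Rtp4 had log2 fold changes of -3.16, -3.15, -3.42 and -3.87. The rest of those lower in control GMPs were Oasl1, Herc6, Ifih1, Isg20, Samhd1, Ifitm3, Parp14, Ifi27, Xaf1 and Lgals3bp, with log2 fold changes between -2.67 and -0.87. Plasma and B cell markers summed to 155 to 185 CPM in control GMPs against 13019 to 77157 CPM in control LT-HSCs. Erythroid markers summed to 18.8 to 35.3 CPM against 864 to 2334 CPM. Sums of monocyte and macrophage and of plasmacytoid dendritic cell markers were higher in control GMPs without overlap. Of the 5 tested plasmacytoid dendritic cell markers, however, 1 was called higher in control GMPs and 2 were called lower. The higher one, Irf8, which other cells express too, averaged 452 CPM in control GMPs against 35.3 CPM in control LT-HSCs. The part of these cells in the results was not tested.

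With AML1-ETO, 9 of 37 genes were lower in GMPs than in LT-HSCs (24.3%, against 9.15% of all genes) and 3 were higher (8.11%, against 12.6%), with a median of -0.83 against 0.00. Every AML1-ETO GMP library lay below every AML1-ETO LT-HSC library in 20 genes (54.1%, against 20.7%) and above in 2, Ifit2 and Ifitm2 (5.41%, against 21.1%). Ddx58 averaged 40.1 ± 3.35 CPM in the AML1-ETO GMP libraries and 124 ± 8.38 CPM in the AML1-ETO LT-HSC libraries (SD, n = 3 each), with a log2 fold change of -1.63 ± 0.22, adjusted p = 0.000151. Trim30a averaged 53.7 ± 13.4 CPM and 122 ± 7.8 CPM (-1.19 ± 0.24, adjusted p = 0.0031). Oasl1, Herc6, Parp9, Dtx3l, Ifi27, Rtp4 and Lgals3bp were the others that were lower. The 3 that were higher in AML1-ETO GMPs were Ifitm1, at 21 ± 18.7 CPM against 2.61 ± 1.15 CPM in the AML1-ETO LT-HSC libraries (3.01 ± 0.76, adjusted p = 0.0114), Ifit2, at 30 ± 18.3 CPM against 11.4 ± 2.6 CPM (1.40 ± 0.37, adjusted p = 0.0154), and Cmpk2, at 20.1 ± 14.6 CPM against 6.51 ± 2.13 CPM (1.62 ± 0.55, adjusted p = 0.0492). Between the AML1-ETO groups the marker sums of mast cells and basophils were lower in GMPs without overlap, though of the 8 markers 3 were called lower and 2 higher. Those of monocytes and macrophages, neutrophils, and T and NK cells were higher there without overlap. Of the 6 tested T and NK cell markers, however, 1 was called higher and 1 lower. The part of these cells in the results was not tested. The comparisons between cell types share their samples with those between genotypes. Of the calls lower in control GMPs 15 of 18 held without any 1 of the 14 libraries, and Ddx58 and Trim30a were the 2 of 9 lower with AML1-ETO that did. Between the AML1-ETO groups 4 genes were called lower in GMPs without AML1-ETO LT-HSC replicate 1, 3 without its replicate 2 and 5 without its replicate 3, and 1 was called higher in each of these fits. Without AML1-ETO GMP replicate 1, 3 were called lower and 1 higher, and without AML1-ETO GMP replicate 2, 5 lower and 5 higher. Over all genes the fit without AML1-ETO GMP replicate 2 called 1223 lower and 1757 higher, against 1474 and 2031 with all libraries. That Ifitm2 was higher in control GMPs was lost without any 1 control GMP library, with control LT-HSC replicate 3 or 4 left out, and without AML1-ETO LT-HSC replicate 3.

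The genes upstream were taken from lists of the pathway. Of 10 interferon genes in the table, 8 had no count in any library. Ifnb1 was at 0.306 CPM in AML1-ETO LT-HSC replicate 3 and at 0 elsewhere. Ifng, the type II interferon, was at 3.86 CPM in AML1-ETO GMP replicate 3, at 0.717 and 0.461 CPM in AML1-ETO LT-HSC replicates 1 and 2, at 3.33 CPM in control LT-HSC replicate 4 and at 0 elsewhere. A sum of 0 over a group allows up to 3 counts, which is 0.064 CPM in the AML1-ETO GMP libraries, 0.0429 CPM in the control GMP libraries, 0.065 CPM in the AML1-ETO LT-HSC libraries and 0.0483 CPM in the control LT-HSC libraries, for counting error only.

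Of 11 tested receptor and signalling genes, 3 rose in AML1-ETO GMPs (27.3%, against 5.47% of all genes) and 5 in AML1-ETO LT-HSCs (45.5%, against 7.59% of all genes). None fell by edgeR's test in either cell type, also at an unadjusted p under 0.05. In GMPs they were Irf9, Stat2 and Jak2. Irf9 (chromosome 14, 55603571 to 55610030) stood at 114, 80.2 and 74.7 CPM in the AML1-ETO GMP libraries against 37.5, 44.6, 48.5 and 42.8 CPM in the control GMP libraries (1.07 ± 0.17, adjusted p = 0.0159), without overlap. Stat2 changed by 0.65 ± 0.13, adjusted p = 0.0252, and Jak2, a kinase of other cytokine receptors, by 0.71 ± 0.15, adjusted p = 0.0273, both on the log2 scale. In LT-HSCs Stat2 and Irf9 were not called (0.48 and 0.62 on the log2 scale, with adjusted p of 0.324 and 0.0926), though Irf9 did not overlap between the LT-HSC groups. There the receptor subunit Ifnar2 (chromosome 16, 91372783 to 91405589) stood at 96.7, 97.2 and 89.5 CPM with AML1-ETO against 43.5, 62.8, 35.4 and 38.5 CPM in controls (1.17 ± 0.23, adjusted p = 0.0161), and in GMPs it stood at 85.6, 77.2 and 98.7 CPM with AML1-ETO against 89, 92, 109 and 94.6 CPM in controls. The effect on Ifnar2 was lower in GMPs than in LT-HSCs (-1.21 ± 0.27, adjusted p = 0.0162), as was that on its neighbour Il10rb, a receptor subunit for interferon lambda and interleukin 10 (-1.51 ± 0.42, adjusted p = 0.0442). Jak1, Tyk2 and Stat3 were the other LT-HSC calls, with log2 fold changes of 1.03, 0.80 and 1.40 and adjusted p of 0.0116, 0.0197 and 0.00932. For these 3 genes every AML1-ETO GMP library also lay above every control GMP library, without a call. Their log2 fold changes in GMPs were 0.39, 0.29 and 0.72, with adjusted p of 0.0931, 0.152 and 0.0552. The difference between cell types was not called for Stat2 (adjusted p = 0.751), Irf9 (0.305), Jak1 (0.15), Tyk2 (0.247) or Stat3 (0.305).

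Among genes that lead to interferon production, 4 of 15 rose (26.7%, against 5.47% of all genes) and 1 fell (6.67%, against 3.96%) in AML1-ETO GMPs, and 3 of 14 rose in AML1-ETO LT-HSCs (21.4%, against 7.59%). Irf7 (chromosome 7, 141262706 to 141266481), the factor that amplifies interferon production, stood at 47.2, 15.1 and 36.3 CPM in the AML1-ETO GMP libraries against 3.43, 3.72, 2.01 and 2.33 CPM in the control GMP libraries (3.53 ± 0.43, adjusted p = 0.007). In LT-HSCs it stood at 78.4, 82.8 and 55.5 CPM with AML1-ETO against 28.9, 65.2, 13.4 and 29.8 CPM in controls and overlapped, and its effect was higher in GMPs (2.44 ± 0.67, adjusted p = 0.045 for the difference). Irf1, an activator that acts on many of the same promoters, rose in GMPs (2.08 ± 0.17, adjusted p = 0.00162) and in LT-HSCs (1.45 ± 0.40, adjusted p = 0.0488). Tlr7, a receptor for single-stranded RNA, and Myd88, its adaptor, rose in GMPs (4.38 ± 0.76, adjusted p = 0.0181, and 0.69 ± 0.18, adjusted p = 0.0482). In LT-HSCs Tlr7 stood at 14.3, 28.5 and 32.8 CPM with AML1-ETO against 0, 3.41, 0 and 0 CPM in controls. It was not called there (4.99 ± 1.80, adjusted p = 0.113), and neither was the difference between cell types (adjusted p = 0.955). The rise of Tlr7 was thus not shown to be confined to GMPs. The DNA sensor cGAS, listed as Mb21d1, fell in GMPs (-0.82 ± 0.11, adjusted p = 0.00985). Tmem173, which encodes STING, rose in LT-HSCs (1.57 ± 0.28, adjusted p = 0.0111), as did Myd88 (1.11 ± 0.27, adjusted p = 0.0327), and the effect on Tmem173 was lower in GMPs (-1.71 ± 0.32, adjusted p = 0.00684).

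Of 9 genes of negative feedback, 4 rose in AML1-ETO GMPs (44.4%, against 5.47% of all genes) and 2 in AML1-ETO LT-HSCs (22.2%, against 7.59%). Socs3, an inhibitor of cytokine receptor kinases, stood at 28.9, 25.1 and 98.4 CPM in the AML1-ETO GMP libraries against 2.57, 1.51, 0.909 and 1.69 CPM in the control GMP libraries (4.93 ± 0.59, adjusted p = 0.00682). In LT-HSCs it stood at 126, 179 and 102 CPM with AML1-ETO against 166, 120, 19.6 and 54.5 CPM in controls, and the difference of effects was 4.32 ± 0.91, adjusted p = 0.0129. Ptpn2, a phosphatase of JAK and STAT proteins, rose in GMPs (0.62 ± 0.11, adjusted p = 0.0193) and LT-HSCs (1.31 ± 0.20, adjusted p = 0.00603). Irf2 and Ptpn1 rose in GMPs (0.58 ± 0.13, adjusted p = 0.0342, and 0.58 ± 0.13, adjusted p = 0.0301), and Usp18, counted here as well, rose in LT-HSCs. Neither Irf2 nor Ptpn1 was called in LT-HSCs (-0.23 ± 0.18, adjusted p = 0.522, and 0.81 ± 0.23, adjusted p = 0.0535). The effect on Irf2 was higher in GMPs (0.89 ± 0.22, adjusted p = 0.0284 for the difference), while for Ptpn1 the difference was not called (adjusted p = 0.843).

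**Figure D5:**
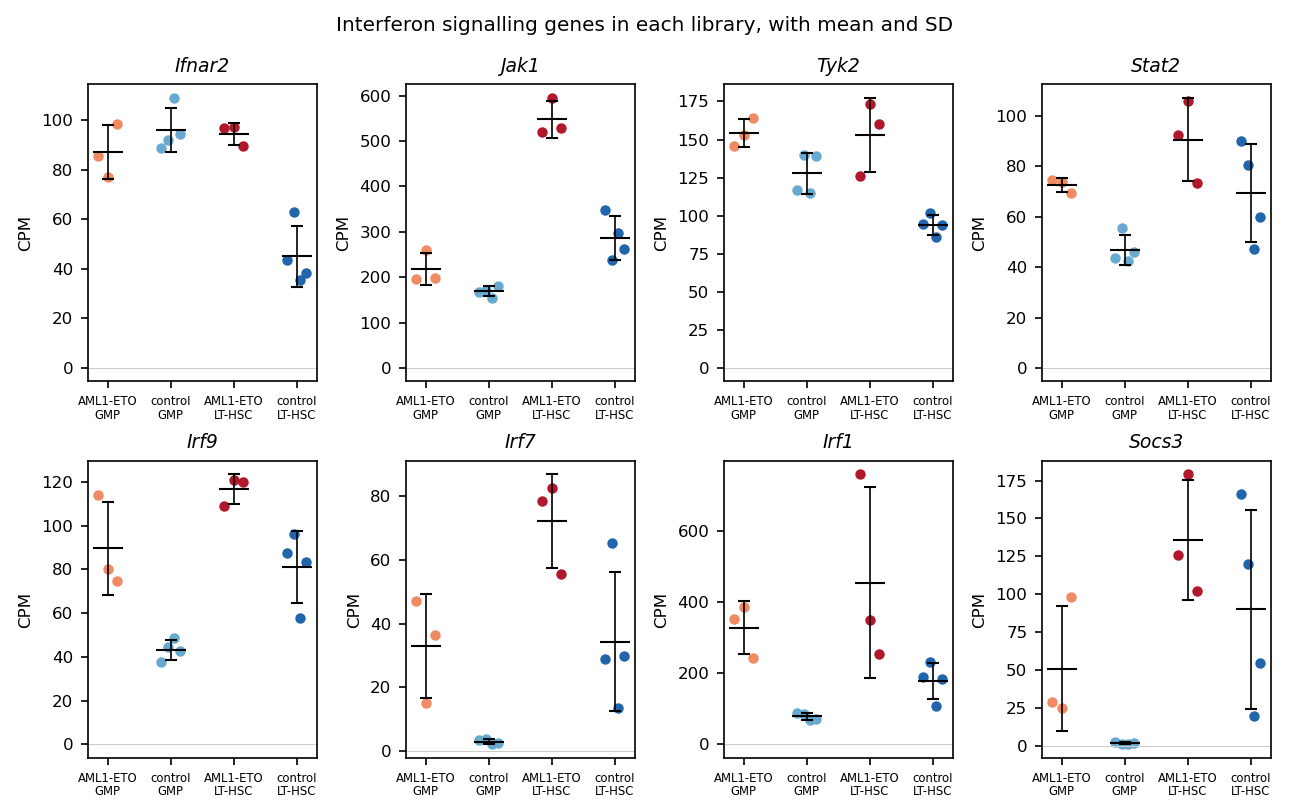
Levels in CPM of 8 genes of interferon signalling in each library (points), with the mean (long bar) and SD (short bars) of each group. Stat2, Irf9, Irf7, Irf1 and Socs3 are higher in every AML1-ETO GMP library than in every control GMP library, and so are Jak1 and Tyk2. Ifnar2, Jak1 and Tyk2 are higher in AML1-ETO LT-HSCs than in every control LT-HSC library, and so are Irf9 and Irf1.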

How the data were processed

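Counts per gene were deposited by the authors as 1 table of raw counts for 14 libraries and 54532 gene lines, 105 of which repeat a symbol. Per the labels' protocols, RNA came from RNeasy Plus Micro columns, and libraries were made with the SMART-Seq v4 and SMARTer Stranded kits, without saying which served which library. The submitters' processing notes name HISAT2 2.0.5, featureCounts 1.5.0-p3 and mm10. The strand setting and the annotation of the counting step were not given in the sources used here. Low-input amplification adds spread to low counts, and counts of overlapping genes or near copies can be split or dropped.

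From these counts, CPM were computed with TMM factors over the 14 libraries. Genes were filtered with filterByExpr and tested with edgeR 4.0.16 (R 4.3.3) by its quasi-likelihood test, 3 AML1-ETO against 4 control libraries within each cell type, and all 14 libraries in 1 fit of 4 groups for the difference of effects and for comparisons of cell types. SEs are the log2 fold change over the square root of F. P-values were adjusted by Benjamini-Hochberg over all genes tested, and called means an adjusted p under 0.05. The procedure was tested on simulated data. Alternatives were DESeq2 1.42.0, RLE and upper-quartile factors, no filter, a replicate block, 1 fit of all libraries, and each library left out. No sample was left out of the main results, and 1 gene of the signalling list is not reported here.

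The members and all lists were chosen with earlier results of these data known. Of the 38, those called between genotypes or in the difference are named with every library's value, in order of replicate number, as are some others that complete a family, and the rest are given by ranges or counts. Called genes of other lists are given by library values, by fold changes or by name. Coordinates are those of GENCODE M21 on mm10, and promoters those of RefSeq on GRCm38.p6.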

Additional observations from a re-analysis of the deposited data

Results flagged for a closer look

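In 4 of the 73 sets of 4 control libraries examined, 1 library lay far from the other 3, where chance gives about 1 in 20. Ifit2 was at 26.9 CPM in control GMP replicate 4, against 22.4 to 22.9 CPM in the other three. Isg15 was at 2.89 CPM in control GMP replicate 1, against 2.39 to 2.47 CPM. Ddx58 was at 11.5 CPM in control GMP replicate 3, against 16.5 to 16.7 CPM. Oas1a was at 35.4 CPM in control LT-HSC replicate 3, against 28.1 to 28.4 CPM, the one of the 4 in which the library that stood lowest for 26 genes was the highest.

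In 5 of 37 genes the effect of AML1-ETO differed between the cell types by the test of the difference itself, GMP effect minus LT-HSC effect on the log2 scale. It was 4.32 for Ifitm1, 2.70 for Cmpk2, 2.69 for Ifitm3, 1.89 for Ifit2 and 1.26 for Ifih1, all higher in GMPs. Each lost its call in at least 1 fit that left out 1 library.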

How the results depend on the processing

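Genes called higher or lower with AML1-ETO depended on the tool and on single libraries, and the causes were not tested. In LT-HSCs, the 6 called higher became 3 with upper-quartile factors and 3 without the filter, and ranged from 0 to 6 over fits that left out 1 library, and the 4 called lower ranged from 1 to 4. In GMPs, the 10 called higher became 16 with DESeq2 and ranged from 4 to 18, and those called lower ranged from 0 to 1. For the difference, the 5 became 12 with DESeq2 and 3 without the filter and ranged from 1 to 8, and those lower ranged from 0 to 2. Between control GMPs and control LT-HSCs, the 18 called lower ranged from 15 to 23, and the 1 called higher (Ifitm2) ranged from 0 to 1 and became 0 with DESeq2, RLE factors, upper-quartile factors and no filter. The 23 came without control LT-HSC replicate 3, where 2092 of all genes were called lower, against 1702 with all libraries. Between AML1-ETO GMPs and AML1-ETO LT-HSCs, the 9 called lower became 14 with DESeq2 and ranged from 3 to 12, and the 3 called higher ranged from 1 to 5. The difference for Mx2 ranged from -6.04 to 0.70 over fits that left out 1 library and was -6.04 (adjusted p = 0.0228) without AML1-ETO GMP replicate 2, the AML1-ETO GMP library in which Mx2 had counts, against 0.12 with all libraries. Of the values of single genes under alternatives, 2740 kept direction and side of the threshold, 224 lost the call, 88 gained one and 1 turned.

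The labels do not state whether replicate numbers pair the samples, and correlations over so few libraries cannot settle it. Same-numbered libraries of the 2 genotypes had deviations that correlated between -0.077 and 0.036, and same-numbered control GMP and control LT-HSC libraries between -0.039 and 0.018. AML1-ETO GMP and AML1-ETO LT-HSC libraries of the same number correlated at 0.091, 0.161 and 0.109, each best with its own number, a hint from the data and not the design. With a replicate block the counts became 0 higher and 2 lower in LT-HSCs, 1 higher in GMPs and 1 higher for the difference, 0 higher in control GMPs against control LT-HSCs, and 0 higher and 5 lower in AML1-ETO GMPs against AML1-ETO LT-HSCs. Depth limits Ifit3, Ifit3b, Mx2 and Ifi44, which had few counts in GMPs.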

Other observations

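Interferon-stimulated genes outside the 38 were also counted, from a list chosen with earlier results known. In GMPs 10 of 38 tested rose with AML1-ETO (26.3%, against 5.47% of all genes) and 1 fell (2.63%, against 3.96%), and in LT-HSCs 9 of 37 rose (24.3%, against 7.59%) and none fell by edgeR's test (against 4.69%), with 1 lower at an unadjusted p under 0.05. Their median log2 fold change was 0.36 in GMPs, against -0.03 over all genes, and 0.70 in LT-HSCs, against 0.03 over all genes. Gbp2, a GTPase that attacks membranes of pathogens, stood at 93.3, 95.7 and 51.3 CPM in the AML1-ETO GMP libraries against 6.48, 6.68, 4.94 and 11 CPM in the control GMP libraries (3.48 ± 0.33, adjusted p = 0.00299). Ube2l6, the conjugating enzyme of ISG15, stood at 57.2, 16.7 and 57.2 CPM against 4.23, 6.3, 4.68 and 6.87 CPM (3.0 ± 0.44, adjusted p = 0.011), and Uba7, its activating enzyme, at 193, 197 and 411 CPM against 68.4, 72.4, 69.4 and 74.1 CPM (1.93 ± 0.26, adjusted p = 0.00892). Uba7 also rose in LT-HSCs (1.20 ± 0.27, adjusted p = 0.0259), while Ube2l6 was not called there (-0.45 ± 0.43, adjusted p = 0.608). The effects on Gbp2 and Ube2l6 were higher in GMPs than in LT-HSCs, by 2.81 ± 0.66, adjusted p = 0.0212, and 3.53 ± 0.66, adjusted p = 0.00693. Ly6a, which encodes the stem cell antigen Sca-1, is interferon-stimulated and part of the usual sort of these cells. It stood at 19.3, 2.75 and 6.92 CPM in the AML1-ETO GMP libraries against 1.34, 1.08, 0.779 and 0.116 CPM in the control GMP libraries (3.55 ± 0.91, adjusted p = 0.0482).

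In LT-HSCs, Apobec3, a cytidine deaminase that restricts retroviruses, stood at 508, 626 and 512 CPM with AML1-ETO against 261, 232, 217 and 203 CPM in controls (1.36 ± 0.17, adjusted p = 0.00316). Slfn8 stood at 88.2, 121 and 96.9 CPM against 43.8, 21, 12.5 and 25.3 CPM (2.08 ± 0.40, adjusted p = 0.0139). Ifi209, of the p200 family of DNA-binding proteins, stood at 51.3, 90.9 and 54.2 CPM against 3.97, 6.21, 7.08 and 0 CPM in LT-HSCs (4.02 ± 1.01, adjusted p = 0.0374) and was not called in GMPs (-0.98 ± 0.41, adjusted p = 0.191). The effects on Ifi209 and Apobec3 were lower in GMPs than in LT-HSCs (-4.92 ± 1.07, adjusted p = 0.0152, and -1.04 ± 0.21, adjusted p = 0.0104). Oas1c had no count in the 3 AML1-ETO GMP libraries against 1.98, 1.45, 1.36 and 2.85 CPM in the control GMP libraries, at least 29.9-fold lower when 0 is set at 3 counts over the group. The other calls were Ifi206, Sp100, Slfn2, Slfn4, Slfn5 and Shisa5 in GMPs and Sp100, Sp140, Trim21, Trim12c and Ly6e in LT-HSCs, all higher.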
